A study of Mus musculus with 60 samples.

Results

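By DIV10 the mouse cortical cultures of this study fell into cultures with high and with low levels of transcripts of dividing cells. Mki67, which encodes the proliferation antigen Ki-67, was under 20 TPM in 4 of the 12 DIV10 libraries and at or above that level in 8; the 4 libraries are called Mki67-low and the 8 Mki67-high. The 12 are among 48 short-read libraries from cortex, and the whole series holds 60 samples. The groups were chosen by the Mki67 values themselves, so the differences between them are described and carry no test. The Mki67-low library nearest the threshold had 9.51 TPM and the Mki67-high library nearest it had 59.5 TPM. Mki67 is left out of the counts of the split and of the slopes on it.

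All 12 cultures came from the cortex of wild-type mouse embryos and were grown in neurobasal medium with a serum-free supplement, and the study asked how loss of paxillin, an adaptor protein of focal adhesions, changes splicing as neurons mature. Each culture received paxillin siRNA or scrambled (SC) siRNA on the second day in vitro, either alone or together with 20 ng/ml of the growth factor BDNF, and was collected at DIV10. The conditions were paxillin siRNA (4 libraries), paxillin siRNA with BDNF (2), SC siRNA (3) and SC siRNA with BDNF (3). The Mki67-low libraries were paxillin siRNA cultures 1 and 2, SC siRNA culture 3, and SC siRNA culture 3 with BDNF, and per-library values of the Mki67-low group are given in that order throughout. The Mki67-high libraries were paxillin siRNA cultures 10 and 11 without and with BDNF, SC siRNA cultures 1 and 6, and SC siRNA cultures 1 and 2 with BDNF. Each siRNA thus gave 2 Mki67-low and 4 Mki67-high libraries, while BDNF had been added to 1 of the 4 and to 4 of the 8. The same culture number could fall on both sides, as culture 1 was Mki67-low with paxillin siRNA and Mki67-high with SC siRNA. The library numbers form 3 series, here called A, B and C; all 4 paxillin siRNA libraries of the Mki67-high group belong to series C, which has no Mki67-low library.

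Neurons of the embryonic cortex leave the cell cycle for good, so that Ki-67 in such a culture marks other cells, chiefly radial glia, astrocytes and oligodendrocyte precursors, which go on dividing in medium that holds growth factors. Astrocytes clear glutamate and potassium, oligodendrocyte precursors mature into the cells that make myelin, and microglia are the resident phagocytes of the brain. Cortical neurons are either glutamatergic or GABAergic, and the GABAergic interneurons arise outside the cortex in the ganglionic eminences. A cell under stress can halt its cycle through p53 and its target Cdkn1a, and can restrict translation through the transcription factor ATF4.

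The samples are labelled as cortical neurons. Neuronal transcripts were present in all 12 libraries: Rbfox3, the antigen NeuN, was at 4.35 to 10 TPM, and Snap25, a synaptic fusion protein, at 28.2 to 64.2 TPM. Glial transcripts were abundant as well, and the summed level of 26 astrocyte genes was 12111 to 38809 TPM. Genes above 0 numbered 21737 to 22213 in the Mki67-low libraries and 22387 to 23354 in the Mki67-high ones, and the 50 most abundant genes took 23 to 28.9% and 21.5 to 24.4% of all TPM. These technical measures thus moved with the groups, and their part in the differences was not tested. Pxn, the gene targeted by the siRNA, was at 18.8, 13.4, 19.9 and 15.9 TPM in the Mki67-low libraries and at 8.99 to 13.2 TPM (median 11.2) in the Mki67-high ones. Both siRNAs are represented on each side, and the groups did not overlap. TPM are relative to the other transcripts of a library and hold no read depth, and in bulk RNA fewer cells of a type and less RNA per cell cannot be told apart.

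A gene was called where the 8 Mki67-high and the 4 Mki67-low libraries did not overlap and their mean log2(TPM + 1) differed by at least 1. Of 14426 genes whose mean over the 12 libraries reached 1 TPM, 1398 were called higher in the Mki67-high libraries (9.69%) and 733 lower (5.08%). These shares are given as the background of the lists below, and since the Mki67 split itself chose the libraries nothing is read from them. The median difference over all genes was 0.08. Among the 25 gene lists, the largest positive medians belonged to GABAergic interneurons, myelinating oligodendrocytes and reactive astrocytes, and the amino acid stress list had the lowest.

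The genes of mitosis followed Mki67 most completely. Of 28 mitosis genes, 23 were called higher in the Mki67-high libraries and none lower, with a median difference of 1.67. Top2a, the topoisomerase that untangles sister chromatids, was at 1.25, 1.3, 1.93 and 4.98 TPM in the Mki67-low libraries and at 20.4 to 47.8 TPM (median 32.1) in the Mki67-high ones. Its mean was 14.2-fold higher with no overlap. Ccnb1, the mitotic cyclin B1, was at 0.562, 0.982, 1.64 and 3.99 TPM against 15.1 to 28.1 TPM (median 21.2), again with a clear gap between the groups. Ccna2 (cyclin A2), Aurkb (Aurora kinase B), Cenpf (a kinetochore protein) and Ube2c (an enzyme of the anaphase-promoting complex) differed by 2.84, 2.88, 3.20 and 3.04 on the log2 scale. Within the Mki67-low libraries, SC siRNA culture 3 with BDNF had the highest values of Top2a, Ccnb1, Ccna2, Cenpf and Ube2c, as it had of Mki67. The 5 mitosis genes that were not called, Bub1b, Plk1, Tpx2, Mybl2 and Anln, also had positive differences.

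The genes of DNA replication were less uniform, as 6 of 22 S phase genes were called higher and none lower, with a median difference of 0.65. Mcm5, a subunit of the replicative helicase, was at 1.19, 1.54, 1.66 and 3.28 TPM against 12.2 to 21.5 TPM (median 17.3). Uhrf1, which copies DNA methylation to the new strand, was at 1.2 to 4.11 TPM against 10.7 to 20.5 TPM. Other parts of the same machinery overlapped between the groups, and these were picked out after their values had been seen. Pcna, the sliding clamp of DNA polymerase, was at 134, 158, 101 and 141 TPM against 105 to 178 TPM (median 151). Mcm7, another helicase subunit, was at 232, 200, 104 and 97.5 TPM against 67.9 to 103 TPM, so that 3 of the 4 Mki67-low libraries lay above every Mki67-high one.

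Among 6 CDK inhibitors tested, 2 were called higher in the Mki67-low libraries and none lower. Cdkn1a, which encodes the CDK inhibitor p21, was at 969, 694, 503 and 593 TPM in the Mki67-low libraries and at 23.4 to 49.8 TPM (median 40.3) in the Mki67-high ones, a mean 18.1-fold higher in the former. Cdkn1c, the CDK inhibitor p57, was at 59.7, 73.6, 61 and 37.5 TPM against 7.78 to 32.3 TPM (median 14.9). The other 4 were not called. Of these Cdkn2c ran the other way without overlap, at 18.1, 11.8, 16.5 and 20.4 TPM in the Mki67-low libraries and 28.9 to 36 TPM in the Mki67-high ones, and its difference of 0.97 lay just below the size required. Cdkn1b was lower in every Mki67-high library with a difference of -0.77, while Cdkn2b and Cdkn2d overlapped. Ccnd1, the cyclin that carries growth factor signals into the cycle and which was named after its values had been seen, was at 6.92, 11.5, 14.9 and 19.6 TPM against 145 to 278 TPM (median 180).

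Promoters of 3 of the mitotic genes show the letters that such promoters are known to carry, the CCAAT box bound by NF-Y and the cell cycle homology region, for which TTTGAA and TTTAAA were searched. They are printed because these genes moved together in the 12 libraries; capitals mark any of these motifs on either strand within the 160 bases before the RefSeq start (GRCm38.p6), written 5′ to 3′ on the strand of the gene.
Top2a upstream of the start, chr11:99024190-99024349, minus strand: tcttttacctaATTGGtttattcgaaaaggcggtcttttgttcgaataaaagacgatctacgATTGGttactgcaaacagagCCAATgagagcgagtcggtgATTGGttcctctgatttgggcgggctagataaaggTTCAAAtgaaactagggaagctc
Cdk1 upstream of the start, chr10:69352913-69353072, minus strand: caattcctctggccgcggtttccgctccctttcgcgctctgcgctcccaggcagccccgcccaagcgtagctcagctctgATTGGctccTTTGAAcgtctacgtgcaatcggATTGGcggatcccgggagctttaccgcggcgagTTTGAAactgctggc
Ccnb1 upstream of the start, chr13:100786487-100786646, minus strand: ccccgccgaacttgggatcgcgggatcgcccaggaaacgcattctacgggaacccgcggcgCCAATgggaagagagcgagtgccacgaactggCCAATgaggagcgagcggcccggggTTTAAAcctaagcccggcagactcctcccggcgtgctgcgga
Within the 250 bases before the start, CCAAT and either of the other motifs occurred together in 11 of 25 promoters of 24 matched mitosis genes (44%), in 4 of 20 promoters of 18 matched S phase genes (20%) and in 8.78% of all 32851 promoters in the table. CCAAT alone occurred in 72%, 65% and 33.8% of them, and in 14 of 25 promoters (56%) of 18 matched p53 target genes, a list that differed the other way. A match describes letters only and says nothing on binding in these cultures. Cdk1, the kinase of mitosis, was at 3.14, 2.28, 1.24 and 2.21 TPM in the Mki67-low libraries and at 4.88 to 8.38 TPM (median 6.61) in the Mki67-high ones.

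**Figure D1:**
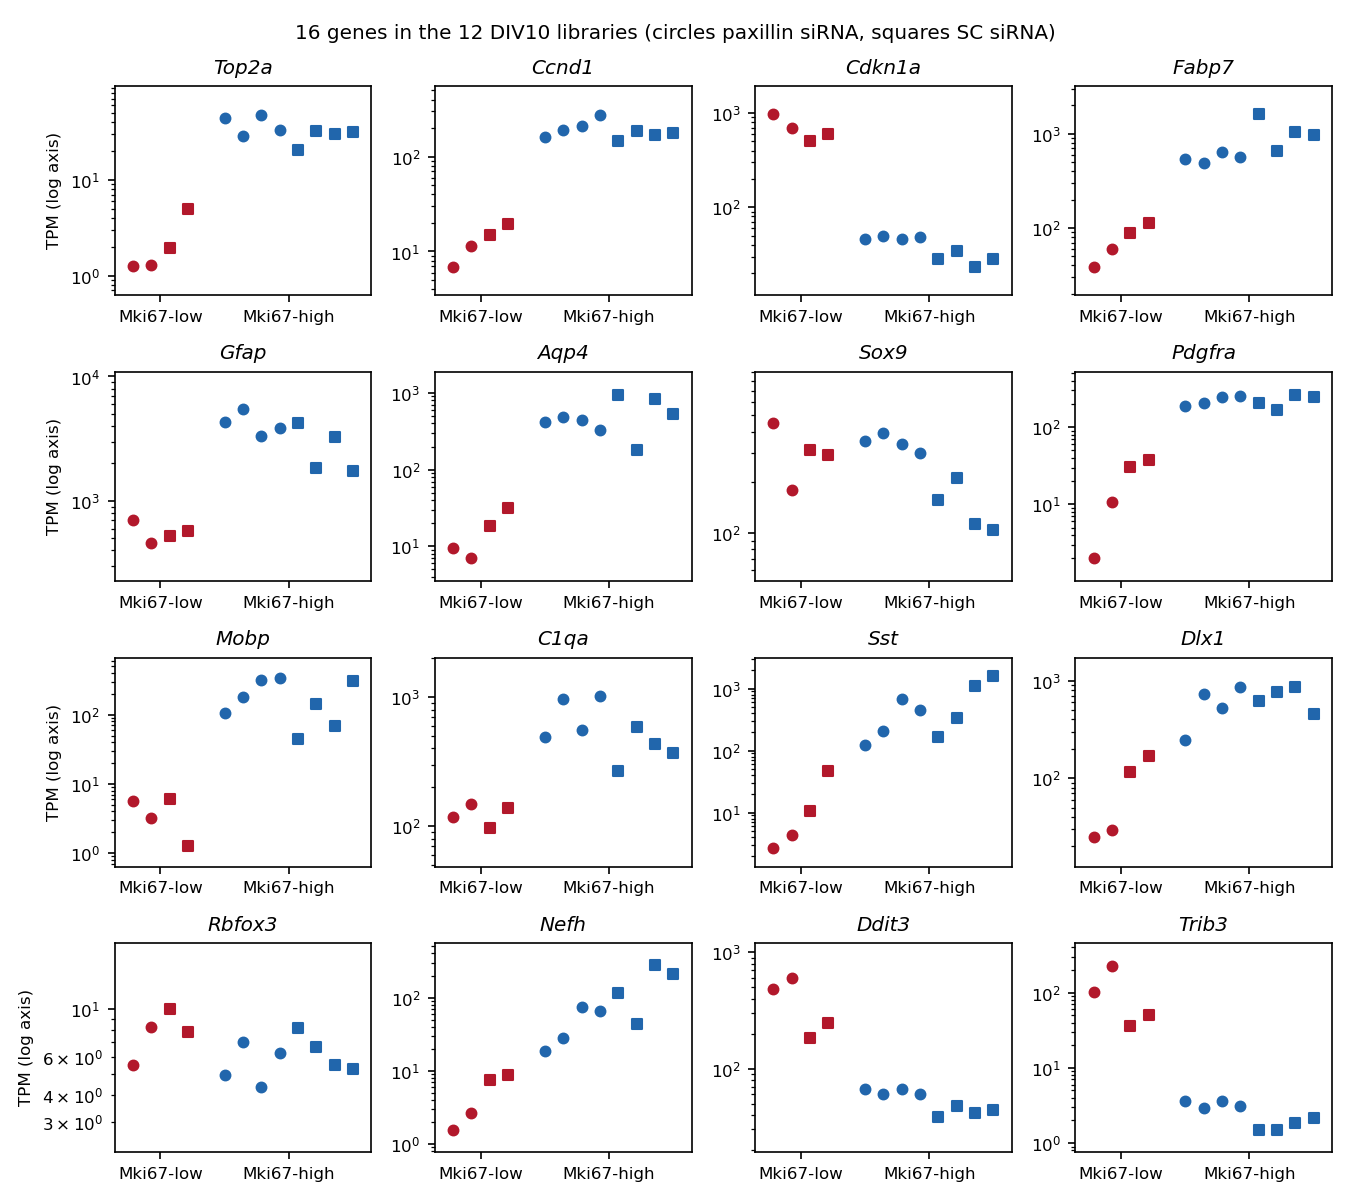
TPM (log axis) of 16 genes in each of the 12 DIV10 libraries, with Mki67-low libraries in red on the left and Mki67-high ones in blue on the right, circles for paxillin siRNA and squares for SC siRNA. Within the red points the order is paxillin siRNA cultures 1 and 2, SC siRNA culture 3 and SC siRNA culture 3 with BDNF. Only Sox9 and Rbfox3 overlap between the groups among the genes drawn.

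Neural progenitor genes split into those that followed Mki67 and those that did not. Of 18 radial glia and progenitor genes tested, 5 were called higher, among them Fabp7, Nes, Ptprz1 and Emx2, and 1 lower (Msi1), with a median difference of 0.71. Fabp7, the brain lipid binding protein of radial glia, was at 38.7, 60.2, 89 and 113 TPM in the Mki67-low libraries and at 490 to 1602 TPM (median 648) in the Mki67-high ones. Nes, the intermediate filament nestin, was at 17.8, 39.3, 37.4 and 34.6 TPM against 151 to 210 TPM (median 184), with no overlap. Sox2, a transcription factor of progenitors and glia, was by comparison high in every library, at 418, 507, 564 and 608 TPM against 616 to 941 TPM; the groups did not overlap, but the difference of 0.59 was below the size required for a call. Vim, the filament vimentin, was at 94.6 to 258 TPM against 217 to 1175 TPM and overlapped.

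Of the genes of intermediate progenitors, the dividing precursors of glutamatergic neurons, 2 of 8 were called higher and 1 lower. The Notch ligands Dll3 and Dll1 differed by 2.10 and 1.26, and Btg2, an antiproliferative gene that p53 also induces, by -1.46. Eomes, the defining factor of these cells, was at 0.809, 1.12, 0.989 and 1.02 TPM against 0.155 to 1.56 TPM, below the expression filter and overlapping. The same gene was at 11.5 to 25.8 TPM in the 15 libraries of DIV3. At DIV10 neither group thus held much Eomes.

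Astrocyte genes differed strongly, but not as a whole. Of 25 astrocyte genes tested, 14 were called higher in the Mki67-high libraries and none lower, with a median difference of 1.64. Gfap, the intermediate filament of astrocytes, was at 707, 455, 519 and 575 TPM in the Mki67-low libraries and at 1724 to 5459 TPM (median 3575) in the Mki67-high ones, a mean 6.2-fold higher. Aqp4, the water channel of astrocytic endfeet, was at 9.63, 7.07, 18.4 and 31.7 TPM against 183 to 946 TPM (median 460), the largest difference of the list at 4.94. The other members with the largest differences were Slc4a4 (a bicarbonate transporter), Gjb6 (connexin 30), Mlc1 (a membrane protein of endfeet) and Aldoc (a glycolytic aldolase), which differed by 2.94, 2.61, 2.58 and 2.39.

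Some genes as characteristic of astrocytes did not follow Mki67, and are named here after their values had been seen. Sox9, a transcription factor of astrocytes, was at 452, 181, 310 and 289 TPM in the Mki67-low libraries and at 104 to 394 TPM (median 255) in the Mki67-high ones. Aldh1l1, a folate enzyme used as a pan-astrocyte marker, was at 26.2, 13.1, 22.1 and 31.1 TPM against 13.5 to 23.8 TPM (median 17.9). Apoe, the apolipoprotein secreted by astrocytes and microglia, was at 21029, 8643, 9712 and 9533 TPM against 11334 to 22304 TPM. Each of the 3 overlapped between the groups.

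Of 14 genes of reactive astrocytes, 5 were called higher and Hspb1, a small heat shock protein, was called lower, with a list median of 1.90. Steap4, a metalloreductase, was at 0.0174, 0.0466 and 0.0125 TPM in 3 of the Mki67-low libraries and listed at 0 in SC siRNA culture 3, against 13.9 to 76.2 TPM (median 42) in the Mki67-high ones. S1pr3, a receptor of sphingosine 1-phosphate, was at 4.54, 1.61, 2.1 and 2.85 TPM against 26.3 to 123 TPM. C3 and Lcn2, a complement component and a lipocalin of reactive glia, overlapped because paxillin siRNA culture 1 reached 50.2 and 156 TPM, while the other Mki67-low libraries were at or below 8.1 and 33.9 TPM.

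The oligodendrocyte lineage was higher in the Mki67-high libraries at both of its stages. Of 14 genes of oligodendrocyte precursors, 9 were called higher and none lower, with a median difference of 1.40. Pdgfra, the PDGF receptor through which the precursors divide, was at 2.04, 10.6, 30.3 and 37.5 TPM in the Mki67-low libraries and at 166 to 260 TPM (median 224) in the Mki67-high ones, a mean 11-fold higher. Olig2, the lineage transcription factor, was at 30.7, 211, 306 and 316 TPM against 707 to 1237 TPM (median 930). In both genes, and in Olig1 at 88.4 TPM, paxillin siRNA culture 1 was the lowest of the 12. Gpr17, a receptor of precursors that have begun to differentiate, was at 119.3, 666, 762 and 979 TPM against 492 to 2587 TPM and was not called.

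Of 14 genes of myelinating oligodendrocytes, 8 were called higher and none lower, with a median difference of 1.98. Mbp, the myelin basic protein, was at 30.7, 57.4, 83.4 and 57.5 TPM against 119.5 to 590 TPM (median 361). Mobp, another structural protein of myelin, was at 5.65, 3.27, 6.13 and 1.27 TPM against 44.7 to 337 TPM (median 162), a mean 46-fold higher. Ermn, a cytoskeletal protein of late oligodendrocytes, and Mag, an adhesion protein of myelin, differed by 4.30 and 3.83. These are genes of cells that no longer divide, and they were higher in the same libraries as the precursor genes.

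Microglial genes were higher as well. Of 14 tested, 7 were called higher and none lower, with a median difference of 1.42. C1qa, a subunit of complement C1q, was at 117, 149, 96.8 and 138 TPM in the Mki67-low libraries and at 269 to 1016 TPM (median 525.7) in the Mki67-high ones. Cx3cr1, the fractalkine receptor, was at 15.2, 17.6, 21.1 and 30.1 TPM against 32.9 to 120 TPM (median 74.6), with the groups close to each other but not overlapping. Csf1r, the receptor on which microglia depend, differed by 1.64. P2ry12, a receptor of resting microglia, did not pass the expression filter.

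Cells of blood vessels and meninges were nearly absent. Only 6 of 16 vascular and meningeal genes passed the filter, none was called, and their summed level was 17.8 to 24.6 TPM in the Mki67-low and 23.8 to 44.1 TPM in the Mki67-high libraries. Pecam1, the endothelial adhesion protein, was at 0.229 to 0.387 TPM in all 12 libraries. No red blood cell gene passed the filter. Of 3 ependymal and choroid plexus genes tested, Folr1, a folate receptor, was called higher, with a difference of 1.11, while Foxj1, the factor of ciliated cells, was at 65.9 to 156 TPM against 56.4 to 156 TPM.

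The median difference of general neuronal genes was smaller than those of the glial lists. Of 16 pan-neuronal genes, 4 were called higher and none lower, with a median difference of 0.31. Their summed level did not overlap, at 1588 to 3571 TPM in the Mki67-low and 4019 to 7066 TPM in the Mki67-high libraries. The astrocyte sum did overlap, at 12111 to 28672 TPM against 21774 to 38809 TPM. Rbfox3 was at 5.48, 8.24, 10 and 7.78 TPM in the Mki67-low libraries and at 4.35 to 8.1 TPM (median 5.87) in the Mki67-high ones. The 4 called genes were Map2, Tubb3, Nefh and Thy1, and Nefh, the heavy neurofilament of mature axons, showed the largest difference. It was at 1.54, 2.66, 7.45 and 8.83 TPM against 18.8 to 276 TPM (median 70). Of 12 genes of immature neurons only Igfbpl1 was called, with a difference of 2.73, and Dcx, the microtubule protein of young neurons, was at 31.2 to 92.7 TPM against 65.7 to 148 TPM.

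Genes of synaptic maturation were called higher in 9 of 24 cases and lower in none, with a median difference of 1.20. Gria1, an AMPA receptor subunit, was at 1.38, 1.5, 5.45 and 3.55 TPM against 13.5 to 53.7 TPM (median 22). Vamp1, a vesicle fusion protein of mature neurons, and Kcna1, an axonal potassium channel, differed by 2.32 and 2.18. Nrgn, a calmodulin-binding protein of glutamatergic dendrites that was named after its values had been seen, went the other way without separating the groups, at 1082, 1108, 1560 and 984 TPM against 441 to 1160 TPM. Camk2a, the kinase of excitatory synapses, was at 80.4 to 244 TPM against 114 to 476 TPM and was not called. None of 15 activity-regulated genes was called.

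The GABAergic interneuron list had the largest median of all, 3.10, with 10 of 15 genes called higher and none lower. Sst, the peptide somatostatin, was at 2.67, 4.3, 10.6 and 46.5 TPM in the Mki67-low libraries and at 125 to 1586 TPM (median 394) in the Mki67-high ones. Vip, the vasoactive intestinal peptide, was at 0.0898, 0.331, 0.0322 and 0.707 TPM against 6.34 to 182 TPM (median 35.3). Transcription factors of the ganglionic eminences showed the same pattern. Dlx1 was at 24.8, 29.6, 117 and 170 TPM against 247 to 864 TPM (median 670), and Dlx5 and Sp9 differed by 3.46 and 3.68. The 2 paxillin siRNA libraries were the lowest for Sst, Dlx1, Dlx5 and Sp9 and the 2 SC siRNA libraries the next, without reaching the Mki67-high range. These pairs also differ in library series (A and B) and culture number, which cannot be told apart from the siRNA. Gad1, Gad2 and Slc32a1, which make and load GABA, overlapped because of SC siRNA culture 3 with BDNF, whose 25.6 TPM of Gad1 lay within the 17.1 to 152 TPM of the Mki67-high group, while the other 3 were at 2.17, 2.35 and 15.4 TPM. BDNF, which is known to raise interneuron peptides, had been added to 4 of the 8 Mki67-high libraries and to 1 of the 4 Mki67-low ones.

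Transcription factors of the cortical layers did not share this pattern. Of 13 tested, only Bcl11b was called higher, at 0.545, 2.09, 3.32 and 5.42 TPM against 8.88 to 26.5 TPM (median 16.1); it serves deep-layer projection neurons and also some interneurons. The list median was -0.15. Tbr1 of layer 6 neurons was at 13 to 46 TPM against 33.5 to 126 TPM and overlapped.

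Among growth factors and receptors that act on glia, 8 of 19 were called higher and none lower. Apart from Pdgfra, Igf1, a growth factor made by microglia and some interneurons, was at 1.82, 1.79, 1.52 and 3.49 TPM against 12.8 to 21.6 TPM (median 14.3). Fgf1, a fibroblast growth factor, and Pdgfa, the ligand of Pdgfra, differed by 2.02 and 1.74. Erbb3 and Erbb4, receptors of neuregulins, differed by 1.48 and 1.45. Egfr, the receptor of EGF, did not overlap between the groups but differed by only 0.70.

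Of 13 genes of CNTF and LIF signaling, 2 were called lower in the Mki67-high libraries and 1 higher, with a median difference of -0.39. Lif was at 9.82, 4.92, 3.66 and 3.5 TPM in the Mki67-low libraries and at 0.697 to 1.41 TPM (median 1.02) in the Mki67-high ones. Clcf1, a second ligand of the same receptor system, was at 35, 46.3, 16.6 and 19.7 TPM against 2.17 to 6.54 TPM (median 3.29). Osmr, the oncostatin M receptor, was called in the opposite direction with a difference of 1.72, and Cntf overlapped. Of 12 BMP and Id genes 1 was called, Id1, an inhibitor of differentiation factors, which was at 349, 307, 206 and 262 TPM against 73.8 to 122 TPM. Of 12 Notch pathway genes only Dll1 was called. Of 20 focal adhesion genes, Vcl (vinculin) and Itga6 (an integrin subunit) were called higher and Zyx (zyxin) lower, with differences of 1.03, 1.45 and -1.15.

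The amino acid stress genes, most of them targets of ATF4, were higher in the Mki67-low libraries. Of 11 genes, 6 were called lower in the Mki67-high libraries and none higher, with a median difference of -1.49. Trib3, a pseudokinase induced by ATF4, was at 102, 226, 36.4 and 49.9 TPM in the Mki67-low libraries and at 1.5 to 3.65 TPM (median 2.52) in the Mki67-high ones, a mean 40.9-fold higher in the former. Ddit3, the stress factor CHOP, was at 479, 597, 181 and 244 TPM against 38 to 66.9 TPM (median 53.9). Atf4 itself was at 3253, 3073, 1475 and 1611 TPM against 545 to 1016 TPM (median 761). In all 3 genes the 2 paxillin siRNA libraries were above the 2 SC siRNA libraries of the Mki67-low group. The former were of series A and the latter of series B and both of culture 3, so siRNA, series and culture cannot be told apart there. The synthetic enzymes of the list did not separate, as Asns (asparagine synthetase) was at 66.2 to 176 TPM against 45.7 to 75.9 TPM and Psat1, an enzyme of serine synthesis, at 62.8 to 139 TPM against 48.6 to 95.2 TPM.

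Targets of p53 were also higher in the Mki67-low libraries. This list was written from general knowledge after the values of Cdkn1a and Gdf15 had been seen, and its counts are a description only. Of 26 genes, 16 were called lower in the Mki67-high libraries and none higher, with a median difference of -1.63. Bbc3, the death protein PUMA, was at 235, 234, 179 and 139 TPM in the Mki67-low libraries and at 13.7 to 35.6 TPM (median 22.3) in the Mki67-high ones. Ccng1, cyclin G1, was at 1490, 1124, 1054 and 1592 TPM against 167 to 235 TPM (median 210). Mdm2, the ligase that degrades p53, was at 191, 118, 110 and 114 TPM against 40.5 to 52 TPM (median 45.6), and Trp53 itself differed by -1.12. Several classical targets did not separate, among them Fas, Perp, Rrm2b, Ddb2 and Plk3.

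Cdkn1a has a pair of RefSeq starts, and the upstream one is shown because its promoter holds 2 copies of CATG separated by 6 bases, the paired cores of a p53 response element, marked in capitals (RefSeq, GRCm38.p6).
Cdkn1a upstream of the start, chr17:29090819-29090978, plus strand: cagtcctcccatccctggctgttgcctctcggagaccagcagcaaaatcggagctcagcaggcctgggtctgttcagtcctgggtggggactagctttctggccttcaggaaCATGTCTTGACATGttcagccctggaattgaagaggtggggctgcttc
That spacing of CATG, which is found alike on both strands, occurred within 250 bases of the start in 161 of 32851 promoters (0.49%) and in 1 of 25 promoters of the 18 p53 targets that matched the table. The TPM of Cdkn1a are per gene and do not say which start was used.

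Among the 10 genes with the largest positive differences, Sst, Steap4, Mobp, Vip and Aqp4 have been described. Glycam1, a mucin-like glycoprotein, and A2m, the protease inhibitor alpha-2-macroglobulin, were the first and second, with differences of 5.58 and 5.46. Glycam1 was listed at 0 in 2 of the Mki67-low libraries and at 0.0815 and 0.117 TPM in the others, against 23.1 to 82.1 TPM (median 57.2). A2m was at 0.0126 to 0.022 TPM against 18.5 to 84 TPM. Slc25a18, a mitochondrial glutamate carrier of astrocytes, was at 0.331 to 0.917 TPM against 35.5 to 85.7 TPM, Fam107a at 0.202 to 11.6 TPM against 45.6 to 125 TPM, and the chemokine Cxcl5 at 0 to 0.0813 TPM against 6.74 to 42.3 TPM.

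Among the 10 largest negative differences, Gdf15, a stress-induced cytokine, came first at -5.56. It was at 177, 293, 85.7 and 75.3 TPM in the Mki67-low libraries and at 1.02 to 3.41 TPM (median 1.8) in the Mki67-high ones. Slc1a5, a glutamine transporter, was at 303, 230, 78.3 and 79.8 TPM against 2.27 to 5.36 TPM (median 3.29). Psrc1, a p53 target with a role on the mitotic spindle, was at 598, 414, 336 and 291 TPM against 13.2 to 25.5 TPM, in the opposite direction to the other spindle genes. Cox6b2, Aebp1, Abhd11os, Eif4ebp1 and Isg20 completed the list after Trib3 and Cdkn1a, with differences from -3.73 to -3.44.

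Because each siRNA gave 2 Mki67-low and 4 Mki67-high libraries, the description could be repeated in libraries that do not overlap. The libraries within a group did not all have separate culture numbers. Both Mki67-low libraries with SC siRNA were of culture 3. The 4 Mki67-high libraries with paxillin siRNA were of cultures 10 and 11 only. Same-numbered libraries of different conditions deviated together in 17 of 17 pairs at DIV3 and in 22 of 23 at DIV5 (r over 0.1), so they may not vary independently. At DIV10 the split shapes these correlations, and they cannot decide on it. Within the paxillin siRNA libraries 2450 of 14332 genes tested were called higher and 898 lower in the Mki67-high group. Within the SC siRNA libraries 1487 and 1020 of 14457 were. Groups this small separate easily, and the sharing of calls that chance would give was not computed. Of the genes called higher, 1041 were shared, 42.5% of the paxillin siRNA list and 70% of the SC siRNA list, and 6 of the paxillin siRNA list were called in the opposite direction with SC siRNA. Of the genes called lower, 487 were shared, 54.2% and 47.7% of the lists. With paxillin siRNA the Mki67-low libraries were of series A and the Mki67-high ones of series C, so that the series and the group cannot be told apart there. Within series B all 3 libraries had SC siRNA, and the 2 Mki67-low libraries, both of culture 3, stood against SC siRNA culture 6 alone. Only list medians are given for this series.

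The glial, interneuron, mitotic and stress lists had medians of the same sign with each siRNA, whereas those of the intermediate progenitor, immature neuron, activity and layer lists were above 0 with paxillin siRNA and below 0 with SC siRNA. The interneuron median was 3.74 with paxillin siRNA and 2.62 with SC siRNA, the mitosis median 1.91 and 1.34, the astrocyte median 1.66 and 1.299, and the amino acid stress median -1.71 and -1.31. Pdgfra differed by 5.23 with paxillin siRNA and by 2.64 with SC siRNA, and Cdkn1a by -4.08 and -4.21. In series B alone the corresponding medians were 2.04, 1.35, 0.61 and -1.28.

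**Figure D2:**
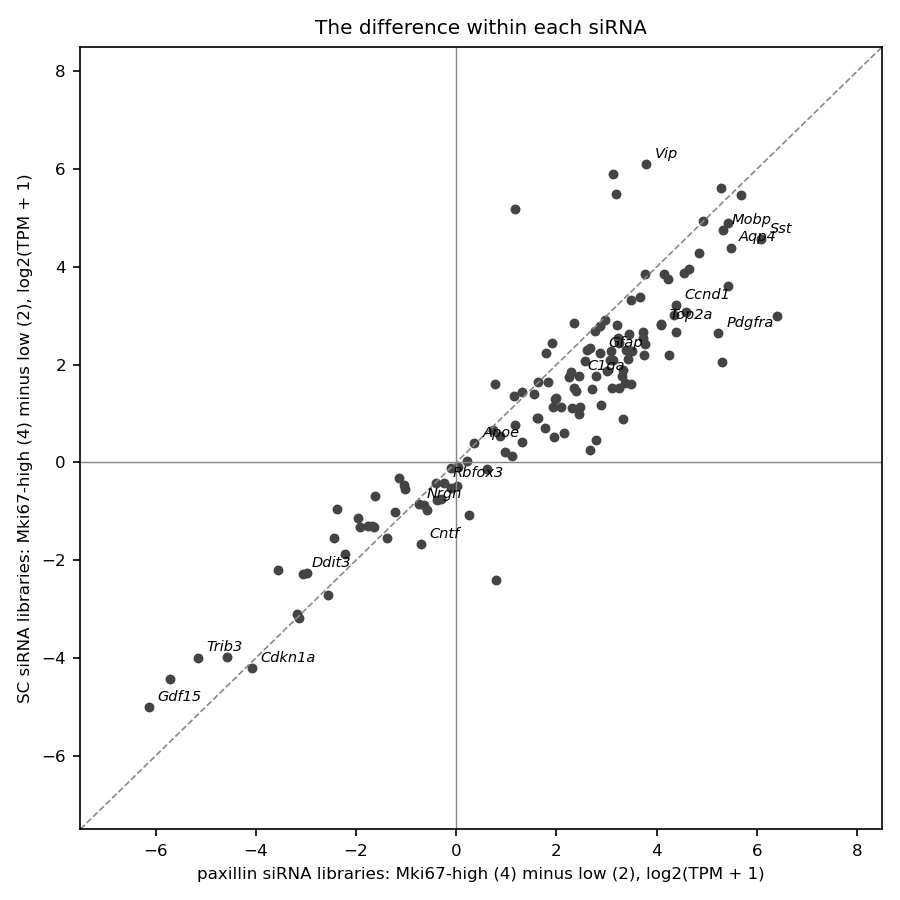
Difference of mean log2(TPM + 1), Mki67-high minus Mki67-low, within the paxillin siRNA libraries (x axis, 4 against 2) and within the SC siRNA libraries (y axis, 4 against 2), for the genes considered for the text; the dashed line marks equal differences. Gdf15, Trib3 and Cdkn1a lie at the lower left, and Sst, Aqp4, Mobp and Vip at the upper right.

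Mki67 under 20 TPM was seen at DIV10 only, and the sources used here do not state whether any culture had received an agent against dividing cells. Mki67 was at 101 to 180 TPM in the 15 libraries of DIV3, at 76.9 to 230 TPM in the 19 of DIV5 and at 67.6 and 175 TPM in the 2 of E15 cortex. The summed mitosis genes were at 420 to 768 TPM at DIV3 and 380 to 1170 TPM at DIV5, against 260 to 478 TPM in the Mki67-high and 60.1 to 98.3 TPM in the Mki67-low libraries of DIV10. Microglial genes lay above DIV3 and DIV5 in both groups, but at different levels. Their sum was at 61.4 to 181 TPM at DIV3 and 74.6 to 432 TPM at DIV5, and at 492 to 925 TPM in the Mki67-low and 846 to 3510 TPM in the Mki67-high libraries of DIV10. The interneuron genes were instead at 1013 to 3131 TPM at DIV3, at 859 to 7255 TPM at DIV5, at 662 to 4186 TPM in the Mki67-high and at 80.8 to 428 TPM in the Mki67-low libraries, so that all 4 of the latter, and of the former only paxillin siRNA culture 10, lay below every library of both earlier days. The amino acid stress genes were at 1216 to 3376 TPM at DIV5, at 1002 to 1574 TPM in the Mki67-high libraries and at 2496 to 5421 TPM in the Mki67-low ones.

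**Figure D3:**
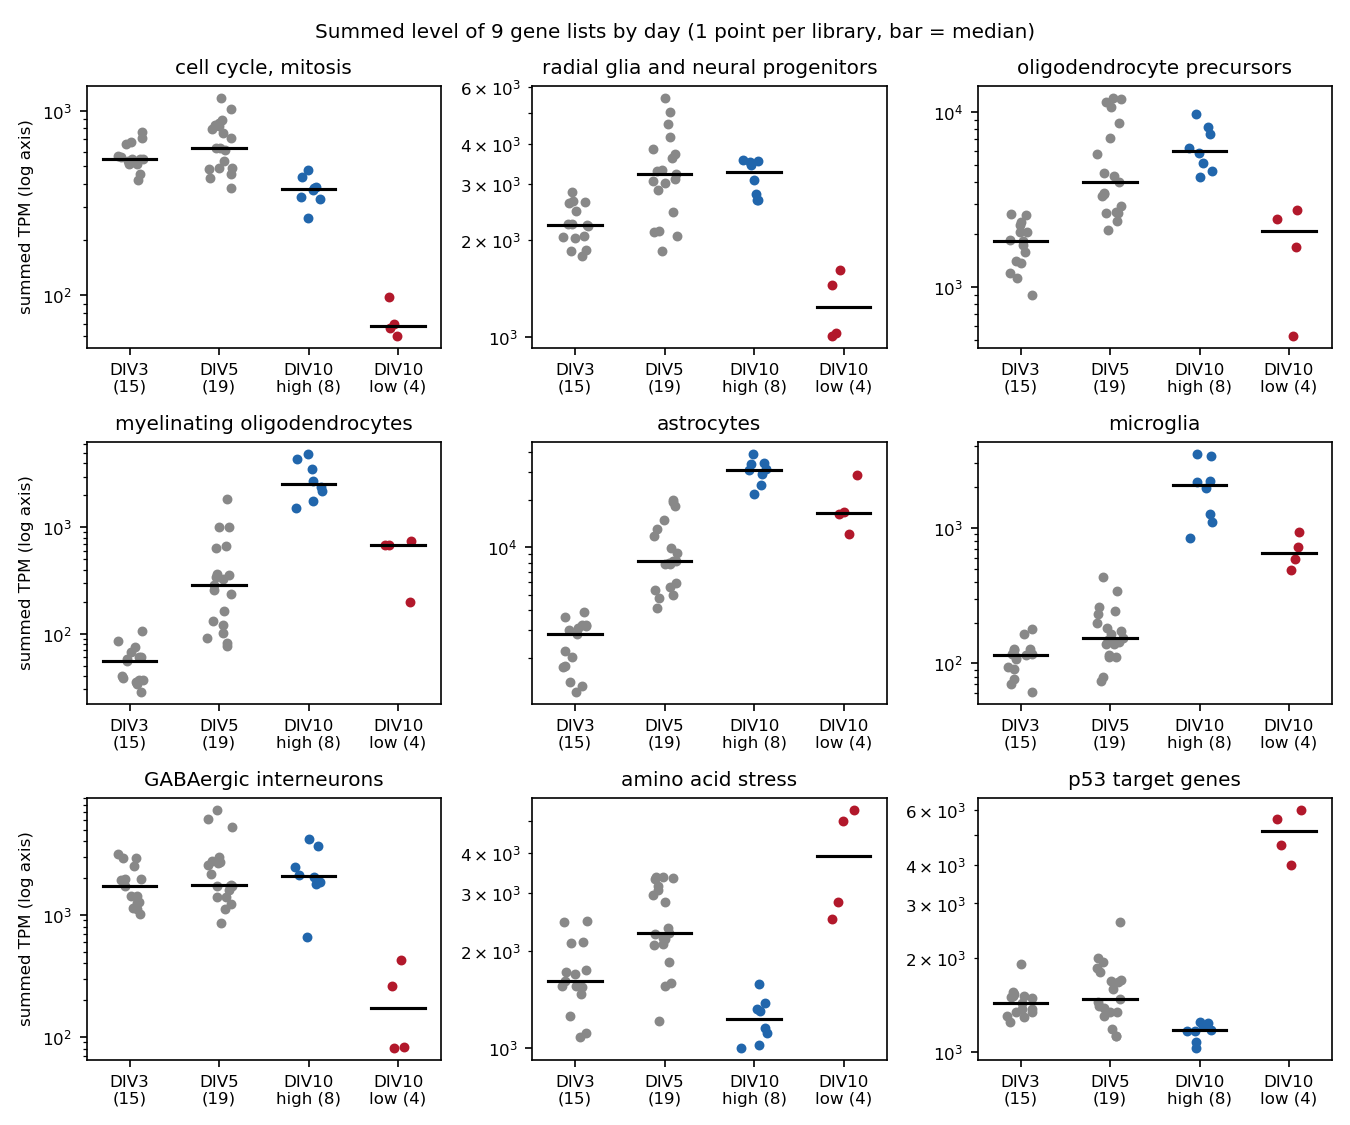
Summed TPM (log axis) of 9 gene lists in the libraries of DIV3 (15), DIV5 (19) and DIV10, the last divided into Mki67-high (8, blue) and Mki67-low (4, red). Each point is a library and each bar a median. The mitosis and interneuron sums of the 4 red libraries lie below every library of DIV3 and DIV5, and their p53 target sums lie above all of them.

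For 11 of the 12 DIV10 libraries the table also holds DIV5 and DIV3 libraries of the same siRNA, BDNF and culture number, 4 that bear the number of a Mki67-low library and 7 that bear the number of a Mki67-high one. At DIV5 Mki67 did not set them apart, at 76.9 to 192 TPM and 88.7 to 160 TPM. Of the genes followed, only Pdgfra did, at 63.3 to 84.8 TPM in the 4 against 115 to 169 TPM in the 7. At DIV3 it overlapped, at 24.7 to 52.8 TPM against 18.4 to 88.1 TPM. The share of all genes that separate in this way was not computed. Cdkn1a was at 35.5 to 68.2 TPM against 17.7 to 42.3 TPM at DIV5, and Gfap at 454 to 1214 TPM against 120 to 2897 TPM, both with overlap. Sst, Trib3, Aqp4, Gdf15, Mobp and Cx3cr1 overlapped as well. The DIV5 medians of Gfap, Trib3, Mobp and Cx3cr1 ran against their DIV10 direction, and those of Cdkn1a, Sst, Aqp4 and Gdf15 with it. The library series differ between the 4 and the 7, and whether a number marks the same culture across days is not stated in the labels.

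The DIV5 and DIV3 libraries were not used to form the groups, so slopes on Mki67 were tested in them. Mki67 was at 76.9 to 230 TPM at DIV5 and at 101 to 180 TPM at DIV3. The slopes therefore do not reach the levels of the Mki67-low libraries and cannot test the DIV10 difference itself. At DIV5, limma fitted a slope of log2(TPM + 1) on log2(Mki67 TPM + 1) over 19 libraries, with a term for each condition; the libraries carry 6 culture numbers and are not all independent. With a Benjamini-Hochberg adjusted p under 0.05, 363 of 14094 genes rose with Mki67 (2.58%) and 245 fell (1.74%). Among the lists, genes of the cell cycle rose: 26 of 28 mitosis genes and 19 of 22 S phase genes passed, all positive. Top2a had a slope of 1.05 ± 0.13 (SE; limma adjusted p = 0.000226) and Mcm5 a slope of 0.86 ± 0.09 (limma adjusted p = 8.85e-05). The largest positive slopes were those of Spp1 (osteopontin), Eomes and Pclaf (a PCNA-binding protein), at 1.70 ± 0.44, 1.46 ± 0.23 and 1.20 ± 0.13. The largest negative ones were those of Fosb, H4c14 and Gpr6, at -2.18 ± 0.32, -1.97 ± 0.34 and -1.94 ± 0.46, of which the histone gene H4c14 has near-identical copies and is uncertain.

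The glial programs that accompanied Mki67 at DIV10 did not pass at DIV5, where no library had Mki67 as low as the Mki67-low group. No gene of the astrocyte, reactive astrocyte, oligodendrocyte precursor, myelinating oligodendrocyte or microglial lists had a slope with an adjusted p under 0.05. Gfap had a slope of -0.83 ± 0.75 (limma adjusted p = 0.542), Pdgfra of -0.47 ± 0.31 (limma adjusted p = 0.399), and Cdkn1a of 0.40 ± 0.40 (limma adjusted p = 0.575). Of 11 amino acid stress genes 4 fell with Mki67, namely Trib3, Chac1, Ddit3 and Sesn2, and Trib3 had a slope of -1.36 ± 0.32 (limma adjusted p = 0.0204). In addition 5 of 15 activity-regulated genes, 5 of 23 synaptic maturation genes and 1 of 15 interneuron genes fell. With single libraries left out these counts ran from 3 to 6, from 0 to 6 and from 0 to 1, that of the amino acid stress genes from 2 to 4, and that of falling astrocyte genes from 0 to 3. At DIV5, 1260 of the genes called higher in the Mki67-high libraries of DIV10 were tested. Of these, 107 passed with a positive slope (8.49%) and 36 with a negative one (2.86%). Their median slope was -0.20, against 0.02 for all genes tested. Of the 671 called lower, 5 passed with a positive slope and 13 with a negative one (1.94%), against the 1.74% of all genes. Their median slope was 0.08.

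**Figure D4:**
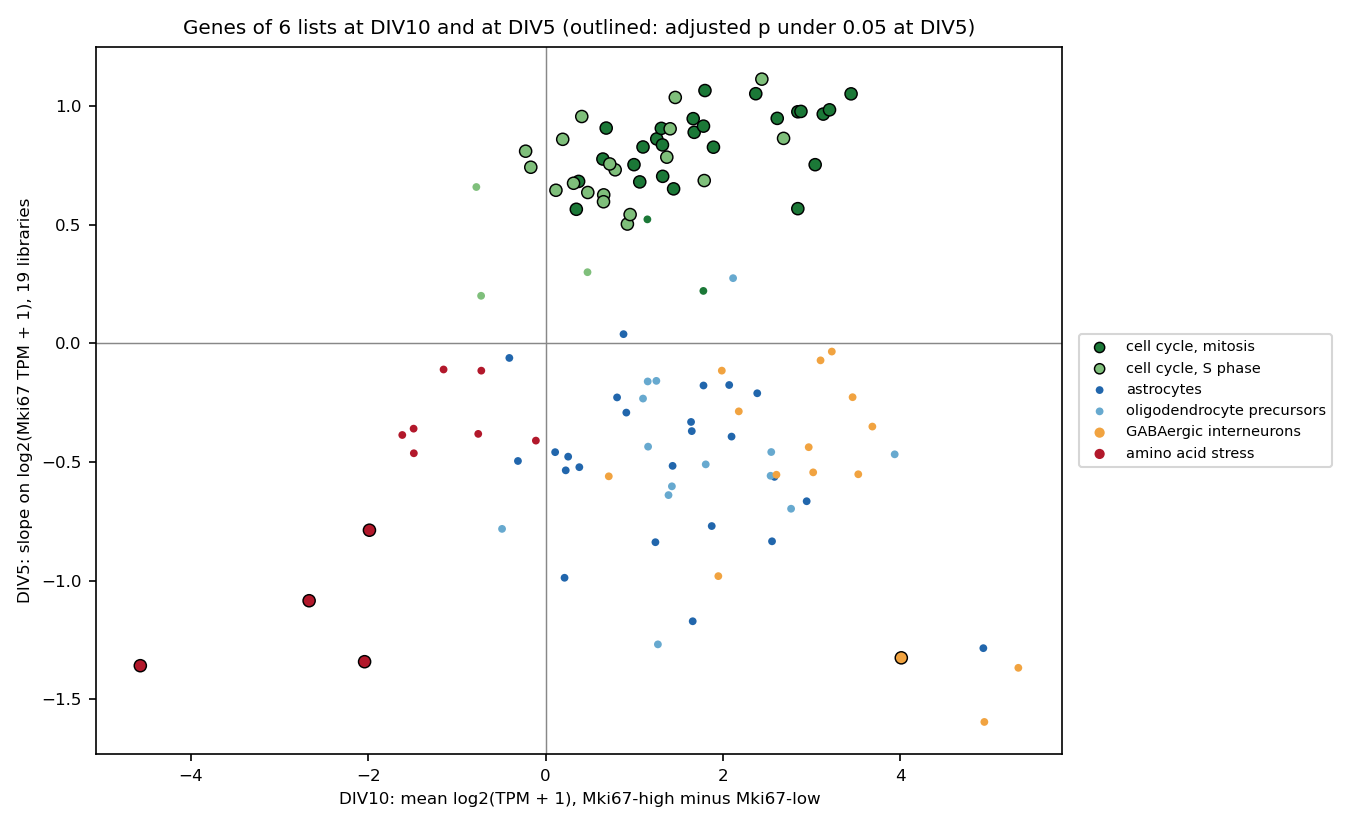
Difference of mean log2(TPM + 1) at DIV10, Mki67-high minus Mki67-low (x axis), and limma slope on log2(Mki67 TPM + 1) over the 19 libraries of DIV5 (y axis), for the genes of 6 lists; outlined points passed an adjusted p of 0.05 at DIV5. Outlined points are 26 of 28 mitosis genes and 19 of 22 S phase genes, all above 0 on the y axis, 4 of 11 amino acid stress genes and 1 interneuron gene below it, and no astrocyte or oligodendrocyte precursor gene.

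The size of the DIV5 result depended on single libraries. The total of 608 genes became 262 without paxillin siRNA culture 3, 273 on leaving out SC siRNA culture 1 with BDNF, 350 and 353 when SC siRNA cultures 1 and 2 were left out, 380 without paxillin siRNA culture 2 and 936 on leaving out SC siRNA culture 4 with BDNF. Over the 19 fits that each left out a library, 22 to 27 mitosis genes and 17 to 20 S phase genes passed with a positive slope. With a term for the library series, 25 and 16 of them did. A fit blocked on culture number called 83 genes in all, among them 7 mitosis and 4 S phase genes with a positive slope and 3 amino acid stress genes with a negative one, and no activity-regulated, synaptic maturation or interneuron gene. At DIV3 limma called 0 of 13636 genes (0% in either direction), with 708 at an unadjusted p under 0.05. Same-numbered DIV3 libraries deviated together, and a fit blocked on culture number called 1 gene.

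Correlations of 8 genes with Mki67 gave 16 relations, tested by 2-sided permutation with Benjamini-Hochberg adjustment over the 16. At DIV5 Top2a had r = 0.92 (adjusted permutation p = 8e-05) and rho = 0.94, and Eomes r = 0.87 (adjusted permutation p = 8e-05) and rho = 0.86. Without the 2 libraries farthest from the median of Mki67 these r were 0.89 and 0.81. Camk2a had r = -0.73 (adjusted permutation p = 0.00144) and rho = -0.72, with r = -0.66 without those 2 libraries. Within series A (6 libraries) and series B (9 libraries), r was 0.90 and 0.96 for Top2a, 0.81 and 0.92 for Eomes, and -0.65 and -0.82 for Camk2a; in series A the exact permutation tests of Eomes and Camk2a had adjusted p of 0.211 and 0.347. Gfap, Pdgfra, Fabp7, Sox2 and Rbfox3 had r of 0.05, -0.12, -0.07, 0.25 and -0.44 at DIV5, with adjusted permutation p from 0.178 to 0.892. No relation passed at DIV3 over the 15 libraries, and within the 8 of series A Top2a had r = 0.95 and Gfap r = 0.85 (adjusted exact permutation p = 0.0111 and 0.0209).

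The labels themselves were compared in one limma fit of all 48 libraries. Paxillin siRNA against SC siRNA at DIV10, averaged over BDNF, called 112 of 14250 genes higher (0.786%) and 314 lower (2.2%). Of the 1329 genes tested that were called higher in the Mki67-high libraries, 7 were higher and 7 lower with paxillin siRNA, and of the 683 called lower none passed. The mitosis, S phase, astrocyte, oligodendrocyte, interneuron and amino acid stress lists had no gene past the threshold, and Pxn differed by 0.06 ± 0.16 (SE; limma adjusted p = 0.868), so that lower Pxn with paxillin siRNA was not seen at DIV10 in these TPM. With single libraries left out, 0 to 5 interneuron genes were lower, and of the amino acid stress and S phase genes 0 to 1 and 0 to 2 were higher. Of 24 synaptic maturation genes 9 were lower (2 to 16 with single libraries left out), among them Scn1a, a sodium channel of interneurons, at -1.49 ± 0.25 (limma adjusted p = 0.00107). Cntf was higher by 2.52 ± 0.33 (limma adjusted p = 3.35e-05).

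The siRNA count varied with the libraries in the fit. Without the 4 Mki67-low libraries, a choice made after seeing the data, the siRNA fit called 1113 genes higher and 1142 lower, with 14 of 24 synaptic maturation genes lower. In those libraries paxillin siRNA occurs only in series C and SC siRNA only in series A and B, so the siRNA and the series cannot be told apart. A fit of the 12 DIV10 libraries called 3 genes, and the same fit with the Mki67 group as a term called 2235. Within each Mki67 group paxillin siRNA and SC siRNA shared no series, so the fit with the group term does not separate the siRNA from the series either. Leaving out single libraries moved the total of 426 as well. It became 2057 when SC siRNA culture 3 with BDNF was omitted and 1104 when the same culture number without BDNF was, both Mki67-low, and 711 when paxillin siRNA culture 11 was. It fell to 35 and 42 on omitting paxillin siRNA cultures 11 and 10 with BDNF, to 57 and 114 on omitting SC siRNA cultures 1 and 2 with BDNF, and to 74 on omitting SC siRNA culture 1.

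BDNF against no BDNF at DIV10 called 2 genes higher (0.014%) and 0 lower (0%) by limma, with 1488 at an unadjusted p under 0.05. The 2 genes were Tac1, the precursor of substance P, and Sebox, a homeobox factor, at 3.13 ± 0.58 (limma adjusted p = 0.0297) and 2.16 ± 0.34 (limma adjusted p = 0.00293). Sst had a difference of 3.38 ± 0.96 (limma adjusted p = 0.335), and no gene of the 2 groups called in the Mki67 split passed. On omitting SC siRNA culture 3 with BDNF, the only Mki67-low library with BDNF, the count was 382. It was 24, 12, 11 and 5 on omitting paxillin siRNA cultures 11 and 10 and SC siRNA cultures 1 and 6, 0 on omitting either library of paxillin siRNA with BDNF, and 1 on omitting any of the other 5. Nothing in the labels states that libraries of a condition came from separate preparations beyond their culture numbers, so these p-values measure the spread between libraries.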

How the data were processed

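Messenger RNA of the cultures was sequenced as paired-end reads. Per the submitters' processing notes the authors used STAR 2.7.10, RSEM 1.3.3 and the GRCm38 build, and they deposited a table of TPM (each gene's share of a library's transcripts, corrected for length and scaled to the same total) for 39756 genes in 48 libraries, without read counts, so the depth behind a value is unknown and counting error cannot be given. The table has no column without a sample, and long-read files of the series were not used here. The 12 DIV10 libraries were divided at 20 TPM of Mki67; the members, the 25 gene lists and the rules were chosen with earlier results of these data known. Values were log2(TPM + 1), genes needed a mean of 1 TPM, and a gene was called where the groups did not overlap and differed by at least 1. Named genes were for each list the 6 largest differences and fixed defining markers, the 10 largest rises and falls, Pxn, and in the slopes the 3 largest each way; any other gene named was picked after its values had been seen. The p53 list was chosen last, once those values were known.

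Tests between labels and slopes on Mki67 at DIV5 and DIV3 used limma 3.58.1 in R 4.3.3 (lmFit, eBayes with trend), with Benjamini-Hochberg adjustment over all genes tested. The siRNA fit and the DIV5 slopes were checked on simulated data. The simulated libraries varied independently, so this check does not cover same-numbered libraries that deviate together. Correlations used 100000 resamples, or exact enumeration below 10 libraries (numpy 2.4.6). Alternatives were the pseudocount, the filter, median ratio size factors, other Mki67 thresholds, single siRNAs or library series, a replicate block and each library left out. Same-numbered libraries of different conditions deviated together in 17 of 17 pairs at DIV3, in 22 of 23 at DIV5 and in 4 of 7 at DIV10 (r over 0.1). The main fits held no term for the culture number on any day, and fits blocked on it are given as alternatives. Promoters came from RefSeq (GRCm38.p6). Values of some list members are not reported here.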

Additional observations from a re-analysis of the deposited data

Results flagged for a closer look

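Dixon's test was run on log2(TPM + 1) of 54 groups of values, the summed TPM of each gene list and Pxn in the Mki67-low and the Mki67-high libraries. Of these, 2 held a library set apart from the others, and chance alone marks about 1 in 20 such groups. Among the Mki67-low libraries, the summed genes of myelinating oligodendrocytes were at 197 TPM in paxillin siRNA culture 1 and at 679 to 737 TPM in the other 3. The gap was 0.937 of the range on the log2 scale. Among the Mki67-high libraries, the summed genes of GABAergic interneurons were at 662 TPM in paxillin siRNA culture 10 and at 1793 TPM or more in the other 7. Here the gap was 0.54 of the range on the log2 scale.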

How the results depend on the processing

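Counts of the Mki67 split stayed within 1.5 times under another pseudocount, filter or scaling, and with each library left out (1189 to 1754 higher, 673 to 817 lower). The other Mki67 thresholds tried lay between the groups and gave the same libraries, so they could not change the counts. Paxillin siRNA libraries alone gave 2450 higher and series A alone 3002 higher and 1424 lower; in series A both Mki67-low libraries had paxillin siRNA and all 3 Mki67-high ones SC siRNA, so that siRNA and group cannot be told apart there. Over the named genes 2762 recomputed differences moved by less than 1 SD and 136 by more, and none changed sign after being called. The 2762 include those at the other thresholds, which could not move. The siRNA count of 426 became 700 with no filter, 3 with DIV10 libraries only, 2255 without the 4 Mki67-low libraries, 2235 with the Mki67 group as a term, and 35 to 2057 with single libraries left out. The BDNF count of 2 became 75 with no filter, 0 with DIV10 libraries only, 15 without the Mki67-low libraries, and 0 to 382 with single libraries left out. The DIV5 slope count of 608 became 288 with a series term, 350 without the 2 libraries farthest from the median of Mki67, and 262 to 936 with single libraries left out. The DIV3 count of 0 became 1 with no filter and 2 with a series term, and stayed 0 with each library left out. Causes of these shifts were not tested.

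With the culture number as a replicate block, the counts were 8696 for siRNA, 9 for BDNF, 83 for the DIV5 slopes (7 mitosis and 4 S phase genes) and 1 for the DIV3 slopes. At DIV10 only cultures 1 and 2 held both siRNAs. In both, paxillin siRNA was Mki67-low and SC siRNA Mki67-high, so that siRNA and Mki67 group cannot be told apart in the blocked siRNA fit. Same-numbered deviations correlated from 0.08 to 0.79 at DIV5, where 22 of 23 pairs were over 0.1, and from -0.55 to 0.87 at DIV10. The negative DIV10 values (-0.43, -0.50 and -0.55) each joined a Mki67-low to a Mki67-high library. They are shaped by the split and cannot decide on pairing. The main fits did not take the numbers as pairs, so their p-values at DIV5 leave out this shared deviation.

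Correlations that passed over all DIV5 libraries missed the threshold within series A for Eomes (0.81) and Camk2a (-0.65), and Top2a at DIV3 passed there (0.95). Signs turned at DIV5 for Fabp7 (0.11 in series A, 0.051 in B), Gfap (-0.085 without the 2 farthest libraries, -0.21 in B) and Pdgfra (0.35 in A), and at DIV3 in series A for Sox2 (0.64), Gfap (0.85) and Camk2a (-0.16). TPM without counts limit what can be said of genes near 0.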
